A study of Homo sapiens with 95 samples.

Results

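The EGF receptor ligands in these data are AREG, EREG, EPGN, BTC, HBEGF and TGFA, which were found by gene symbol and make up 6 of the 27978 genes listed in every count table. They were measured in 95 samples of AALE cells by sparse full length (SFL) sequencing, an RNA-seq protocol that pools barcoded samples in a single library. AALE is 1 immortalized line of human bronchial epithelial cells, and every group shares that background. The study set SFL beside other expression platforms and used 8 derived lines under 4 treatments as its test material, so the comparisons of lines and agents below are those its labels allow.

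FAT1 and CDKN2A cells had undergone CRISPR knockout of the named gene, and their control, GFP, had received the Cas9 and EGFP plasmid with no guide RNA. NRF2 (the NFE2L2 gene), FGFR1, NRG1 and PIK3CA cells overexpressed the named gene, and their control, HCRED, carried a vector with the HcRed reporter. Each line received the solvent DMSO or 1 dose of a tobacco agent: CSC (condensate of cigarette smoke, 24 μg/ml), BaP (benzo(a)pyrene, 173 μM) or NNK (a nicotine-derived nitrosamine, 490 μM). There were 3 samples in 31 of the 32 combinations and 2 in FGFR1 cells under CSC. The study calls the samples of a combination biological replicates. The sources used here do not say that a line was derived more than once, so the p-values measure the spread between these samples and may not cover that between derivations. Whether a line was 1 clone, and how long cells were exposed, is not given in the sources used here.

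All of these ligands are made as membrane-anchored precursors. Metalloproteases such as ADAM17 release the active growth factor, which then binds receptors of the ERBB family on the same or a neighbouring cell. AREG (amphiregulin), EPGN (epigen) and TGFA (transforming growth factor alpha) bind EGFR, while EREG (epiregulin), HBEGF (heparin-binding EGF-like growth factor) and BTC (betacellulin) can also bind ERBB4. In airway epithelium these ligands are known for driving growth and repair after injury, and receptor signalling through ERK in turn induces several of the ligand genes. The counts report their transcripts, not the shed proteins.

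Of the 6 genes, 4 lie in a row on chromosome 4 within 546 kb (GRCh37). EPGN spans chr4:75174187-75182506, EREG chr4:75230862-75254466 and AREG chr4:75310853-75320722, all on the plus strand, and BTC spans chr4:75669969-75719733 on the minus strand. TGFA lies at chr2:70674416-70781325 and HBEGF at chr5:139712428-139726188, both on the minus strand. A near copy of AREG, AREGB, lies at chr4:75480629-75490486. Of the 802 windows of 75 bases within exons of the AREG transcript, 769 (95.9%) were also present letter for letter in AREGB, and the count tables list AREG alone, so the level of AREG is uncertain to the extent that reads from either copy were dropped or assigned to it.

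The promoters of AREG, EREG and EPGN are shown because these neighbouring genes were the 3 members that all 3 tobacco agents raised. Each run is the 250 bases upstream of the annotated start on the plus strand, taken from RefSeq (table build GRCh38.p14) and placed by exact match on GRCh37 at chr4:75310603-75310852 for AREG, chr4:75230612-75230861 for EREG and chr4:75173937-75174186 for EPGN. The 300-base window that holds the AREG run had 2 exact matches on chromosome 4, so its placement is not unique, while those of EREG and EPGN had 1. Capitals mark the motifs that were found.
AREG: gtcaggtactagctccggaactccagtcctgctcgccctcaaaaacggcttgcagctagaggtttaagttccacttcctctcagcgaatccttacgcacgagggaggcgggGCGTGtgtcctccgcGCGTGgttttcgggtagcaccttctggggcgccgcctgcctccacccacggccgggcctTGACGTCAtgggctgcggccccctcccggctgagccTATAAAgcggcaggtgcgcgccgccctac
EREG: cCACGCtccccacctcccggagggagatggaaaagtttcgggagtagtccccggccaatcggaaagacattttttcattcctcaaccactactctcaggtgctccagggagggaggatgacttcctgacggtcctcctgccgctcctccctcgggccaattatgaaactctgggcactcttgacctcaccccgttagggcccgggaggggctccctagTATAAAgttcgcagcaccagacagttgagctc
EPGN: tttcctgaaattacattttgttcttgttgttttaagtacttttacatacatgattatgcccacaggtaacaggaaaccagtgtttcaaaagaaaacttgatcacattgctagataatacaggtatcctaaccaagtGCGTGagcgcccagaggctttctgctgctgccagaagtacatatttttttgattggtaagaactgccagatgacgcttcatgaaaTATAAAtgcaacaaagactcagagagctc
The search covered both strands and used GCGTG, the core that the aryl hydrocarbon receptor binds, TGANTCA of AP-1, the cyclic AMP response element TGACGTCA, the antioxidant response element TGACNNNGC and TATAAA, and no matches overlapped. AREG held GCGTG with first bases at -139 and -124 relative to the start, TGACGTCA at -65 and TATAAA at -29. EREG held the GCGTG core on the opposite strand at -249 and TATAAA at -32, and EPGN held GCGTG at -114 and TATAAA at -29. GCGTG was not particular to these genes. It also lay at -94 in BTC, which no agent raised, at +26 in HBEGF and at -51 in TGFA window 2, while TGFA window 1 held none. Among 35116 RefSeq promoter windows of 300 bases, 36.5% held GCGTG, 1.85% TGACGTCA, 11.5% TATAAA, 7.71% TGANTCA and 13.3% TGACNNNGC, and the last 2 were in no window of a ligand gene. The GC content of the 3 runs was 65.2% for AREG, 58% for EREG and 38% for EPGN.

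The depth was 287446 to 2116383 counted reads per sample, with medians of 1051107 under DMSO, 825587 under CSC, 836087 under BaP and 753702 under NNK. Values are given as counts scaled to the size of each library (CPM) after TMM normalization, and 3 counts in a sample correspond to 1.42 to 10.4 CPM. Every overexpressed gene was higher in all samples of its line than in HCRED, for example NRG1 at 4750 to 6905 CPM against 6.39 to 33.2, and the knocked-out genes were lower than in GFP, FAT1 at 67.5 to 128 CPM against 258 to 447. All 8 basal epithelial markers were detected, summing to 4595 to 13380 CPM, whereas leukocyte markers summed to a median of 0 CPM. The CDKN2A samples had the lowest median Spearman correlation with the other libraries over genes, 0.887, against medians of 0.901 to 0.928 for the other lines. Their range of 0.8725 to 0.8979 overlapped with those of GFP (0.8822 to 0.9191), FAT1 (0.8825 to 0.9129) and NRF2 (0.8977 to 0.9277). The comparisons with DMSO over all lines and the interaction are therefore also given without this line.

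All 6 ligand genes had a mean count above 1 and entered the tests, together with 14384 genes in all. Compared per transcript length (TPM, reads per transcript length scaled to a fixed sum), TGFA and EREG were the most abundant members. TGFA had a median of 48.8 TPM over the 95 samples, EREG 43.2, AREG 20.3, HBEGF 16.8, EPGN 8.23 and BTC 2.59. TGFA had the highest TPM of the 6 in 51 samples and EREG in the other 44. Several members rest on few reads, as mean counts per sample were 8.29 for AREG, 8.37 for EPGN and 2.38 for BTC, against 69.1 for EREG, 57.3 for TGFA and 12.3 for HBEGF. BTC had no read in 19 of the 95 samples, AREG in 3 and EPGN in 2, and at the depth of single samples their absence cannot be told from a low level.

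Treatment with CSC raised 5 of the 6 ligand genes over the 8 lines, with the largest fitted differences for AREG and EPGN, and BTC did not pass the test. BaP raised the same 5 genes, and NNK raised AREG, EPGN and EREG. The question was whether the tobacco agents change ligand expression irrespective of the line, so each agent was compared with DMSO by limma-voom with line as a covariate. Over all genes tested, 55.1% passed an adjusted p of 0.05 for CSC, 28% being higher and 27.1% lower.

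AREG ranged from 0 to 10.03 CPM with a median of 2.52 in the 24 DMSO samples, where it had 77 reads in total. In the 23 CSC samples it ranged from 7.30 to 35.6 CPM with a median of 14.8. Although the ranges over all lines meet between 7.30 and 10.03 CPM, within each line every CSC sample lay above every DMSO sample. The difference was 2.48 on the log2 scale (SE 0.20, adjusted p = 3.73e-22).

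EPGN was at 0 to 16.4 CPM (median 3.22) under DMSO and at 1.06 to 48.1 CPM (median 12.3) under CSC, a difference of 1.91 (SE 0.18, adjusted p = 4.37e-18). The lowest CSC values were those of FAT1 cells and the highest those of CDKN2A cells. EREG was at 9.35 to 135 CPM (median 34.4) under DMSO and at 24.4 to 216 CPM (median 96.5) under CSC, a difference of 1.17 (SE 0.07, adjusted p = 8.19e-32). The EREG groups overlapped over all lines and did not overlap within any line.

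HBEGF and TGFA, the ligands encoded outside the chromosome 4 cluster, changed less. HBEGF was at 3.12 to 22.9 CPM (median 9.13) under DMSO and at 8.18 to 37.3 CPM (median 14.6) under CSC, a difference of 0.84 (SE 0.14, adjusted p = 1.21e-07). TGFA was at 32.6 to 74.7 CPM (median 55.1) under DMSO and at 51.4 to 105 CPM (median 75.4) under CSC, a difference of 0.52 (SE 0.06, adjusted p = 4.25e-14). BTC was at 0 to 10.6 CPM (median 1.97) under DMSO and at 0 to 4.77 CPM (median 1.28) under CSC, and its difference of -0.54 (95% interval -1.04 to -0.04, unadjusted) had an adjusted p of 0.0633. The median difference of the 6 genes was 1.003, against 0.00 over all genes tested.

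**Figure D1:**
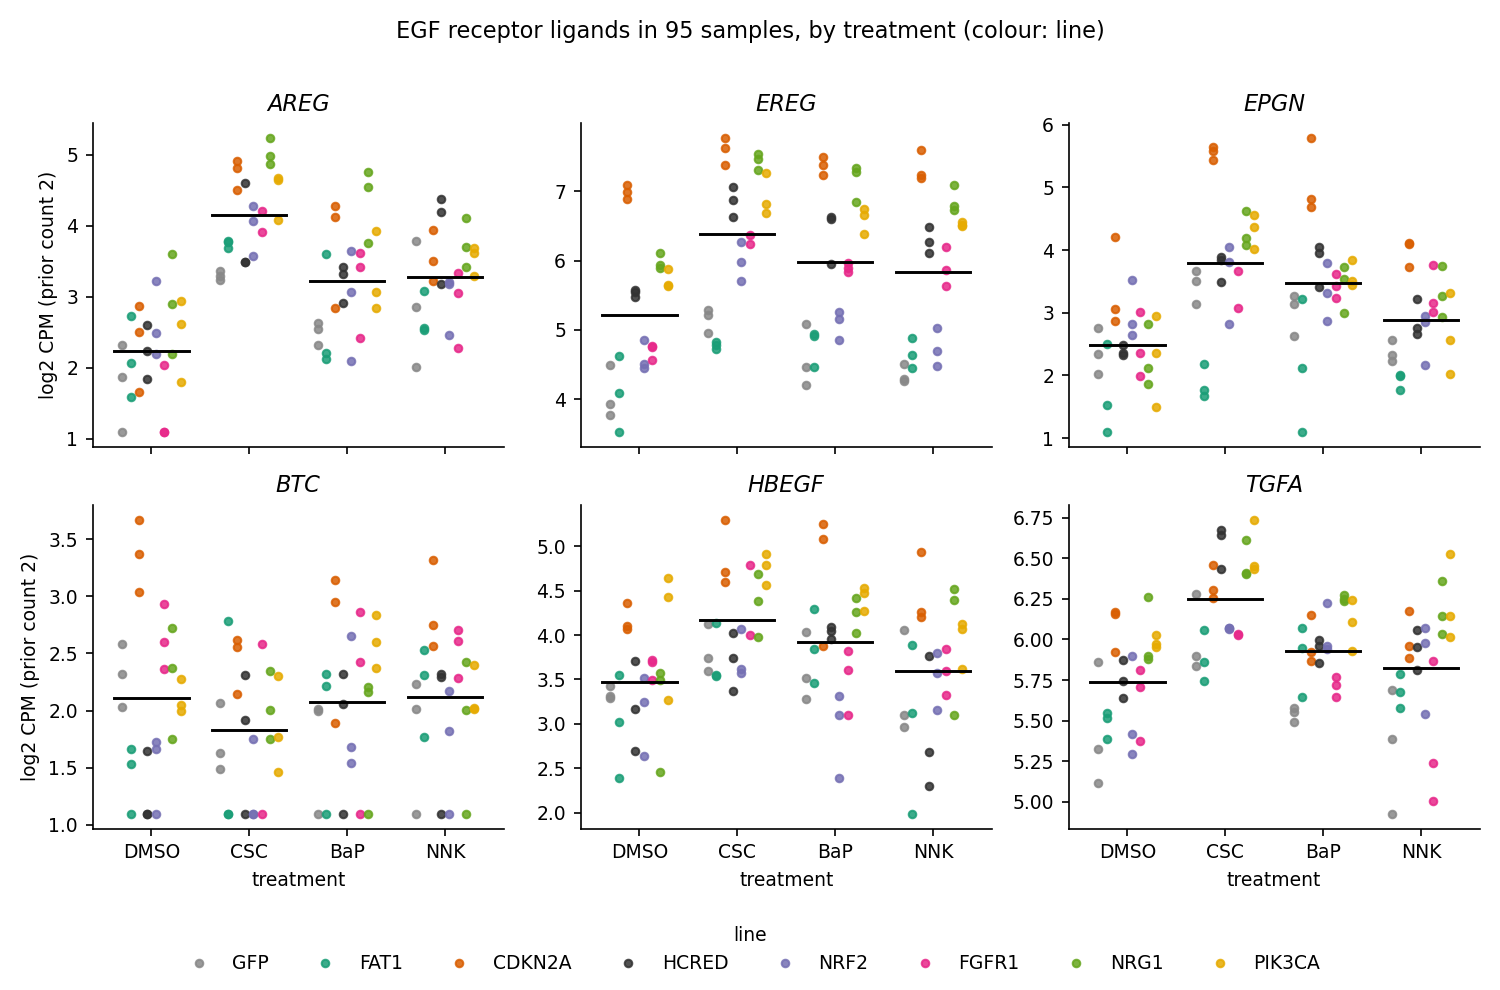
Expression of each EGF receptor ligand gene (y axis, log2 CPM with a prior count of 2) in the 95 samples, by treatment (x axis) and coloured by line; the horizontal bar is the mean of a treatment. The AREG samples move up from a median of 2.52 CPM under DMSO to 14.8 CPM under CSC, whereas the BTC samples stay low, with medians of 1.97 and 1.28 CPM.

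The 5 genes that BaP raised were AREG, EPGN, EREG, HBEGF and TGFA, where 51% of all genes passed the test and 26.1% were higher. The BaP samples were at 2.14 to 24.8 CPM (median 7.07) for AREG, 0 to 53.2 (8.67) for EPGN, 16.3 to 178 (60.1) for EREG, 3.11 to 36.0 (13.8) for HBEGF and 42.9 to 75.2 (59.5) for TGFA. EPGN differed from DMSO by 1.56 (SE 0.18, adjusted p = 8.89e-13) and AREG by 1.502 (SE 0.22, adjusted p = 2.35e-09). EREG differed by 0.83 (adjusted p = 3.77e-19), HBEGF by 0.56 (adjusted p = 7.63e-04) and TGFA by 0.17 (adjusted p = 0.0158). The TGFA call was lost when any 1 replicate number was left out of all groups, with adjusted p values of 0.0654 to 0.0789. BTC, at 0 to 6.71 CPM, differed by 0.11 (95% interval -0.36 to 0.58, adjusted p = 0.738).

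The 3 genes that NNK raised all lie in the chromosome 4 cluster, where 51.8% of all genes passed the test, 26.1% higher and 25.7% lower. AREG was at 1.89 to 18.6 CPM (median 7.44), EPGN at 1.26 to 15.2 CPM (median 5.27) and EREG at 17.0 to 192 CPM (median 69.0) under NNK. The differences from DMSO were 1.44 for AREG (SE 0.22, adjusted p = 8.46e-09), 0.71 for EPGN (SE 0.20, adjusted p = 0.00156) and 0.66 for EREG (SE 0.07, adjusted p = 1.43e-13). The EPGN call depended on the replicates numbered 1, without which the difference was 0.41 (adjusted p = 0.171). HBEGF (0.15, 95% interval -0.15 to 0.45, adjusted p = 0.438), TGFA (0.09, -0.03 to 0.22, adjusted p = 0.206) and BTC (0.10, -0.37 to 0.56, adjusted p = 0.758) did not pass. The median difference of the 6 genes was 0.69 for BaP and 0.40 for NNK, against 0.01 and 0.00 over all genes. The 3 agents share their DMSO samples, so these columns of values are not independent of each other.

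Without the CDKN2A line, the CSC difference was 2.40 for AREG, 1.71 for EPGN, 1.34 for EREG, 0.84 for HBEGF, 0.55 for TGFA and -0.41 for BTC, and the calls for all 3 agents were the same as with it. With a correction for GC content and transcript length, the number of genes that passed for CSC fell from 7922 to 4721, and the CSC differences were 2.57 for AREG, 2.16 for EPGN, 1.46 for EREG, 0.76 for HBEGF and 0.63 for TGFA, all past the threshold. TGFA then also passed for NNK (0.19, adjusted p = 0.0255). The fibroblast markers, a check for other cells, moved with treatment too: the sum of 5 genes had a median of 16.9 CPM under DMSO (7.41 to 34.9), 33.9 under CSC (14.0 to 56.2), 27.5 under BaP and 32.04 under NNK. That sum was mostly COL1A1 with 2299 reads over the 95 samples, followed by DCN with 123, COL1A2 with 25, LUM with 9 and COL3A1 with 3. The summed ciliated cell markers went the other way, with medians of 14.3 CPM under DMSO, 8.06 under CSC, 8.56 under BaP and 6.66 under NNK. Their sum was mostly CCDC39 with 626 reads and DNAH5 with 184, whereas FOXJ1 had 30 and TEKT1 had 1 over the 95 samples. The part of either list in the ligand differences was not tested, and in bulk samples fewer cells of a type and less RNA per cell cannot be told apart.

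**Figure D2:**
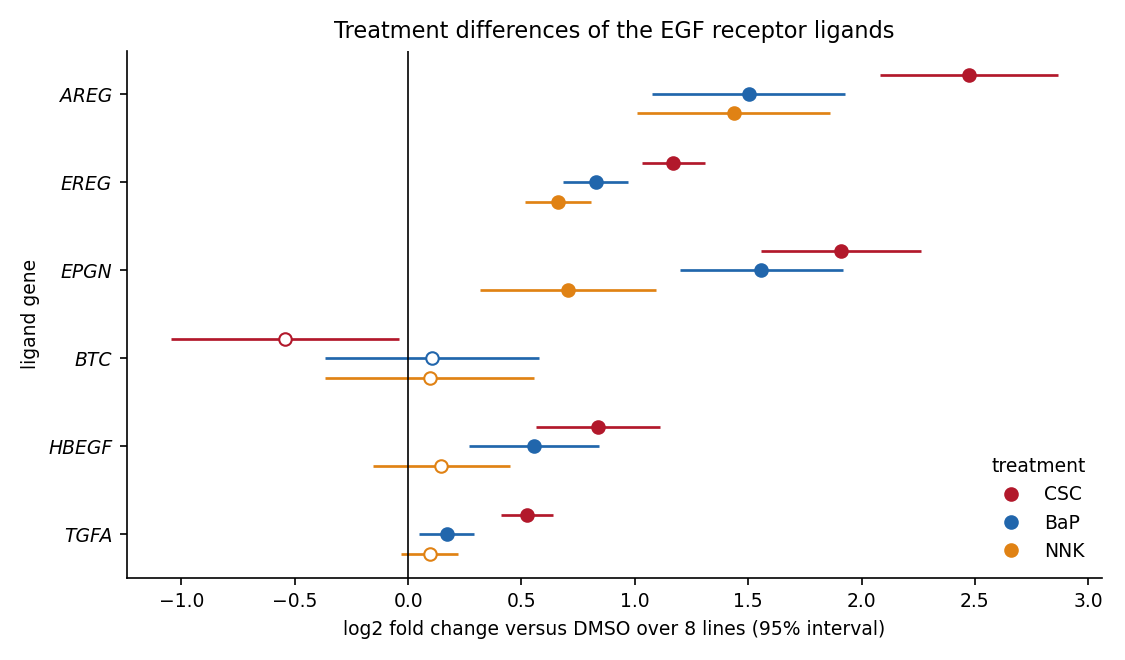
Log2 fold change versus DMSO over the 8 lines (x axis, limma-voom estimate with its 95% interval) of each ligand gene (y axis) for CSC, BaP and NNK; filled points passed an adjusted p of 0.05 and open points did not. CSC is the rightmost point for AREG (2.48), EPGN (1.91), EREG (1.17), HBEGF (0.84) and TGFA (0.52).

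Comparing the agents directly shows which of these gradations exceed the spread. These 3 comparisons were added after the results above were seen, and each agent was given at its own single dose, so they compare these exposures and not the agents at a matched dose. AREG was higher under CSC than under BaP by 0.97 (adjusted p = 2.28e-04), TGFA by 0.36 (adjusted p = 1.84e-06) and EREG by 0.34 (adjusted p = 1.70e-04), where 16.5% of all genes passed, 8.83% higher and 7.69% lower. EPGN (0.35, 95% interval -0.01 to 0.71) and HBEGF (0.28, -0.0023 to 0.56) did not pass, with adjusted p values of 0.192 and 0.186. BTC went the other way and did not pass either (-0.65, 95% interval -1.14 to -0.16, adjusted p = 0.0591).

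Against NNK, all 5 CSC-responsive ligands were higher under CSC: EPGN by 1.203, AREG by 1.04, HBEGF by 0.69, EREG by 0.51 and TGFA by 0.43, with adjusted p values from 5.14e-09 to 1.19e-04, where 12% of all genes were higher and 23.7% passed. BTC was lower under CSC by -0.64 with an adjusted p of 0.0473. That call was lost with edgeR's quasi-likelihood test (0.223), with DESeq2 (0.224) and without any 1 replicate number. Between BaP and NNK only EPGN passed, being higher under BaP by 0.85 (adjusted p = 5.33e-04), where 11.8% of all genes passed, and HBEGF missed the threshold (0.41, 95% interval 0.11 to 0.70, adjusted p = 0.059).

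Within single lines the direction was shared widely. AREG and EREG had a mean log2 CPM above that of DMSO in 8 of 8 lines under each of the 3 agents. For CSC, no sample overlapped with the DMSO samples in 8 of 8 lines for AREG and EREG, 7 for TGFA, 6 for EPGN and 5 for HBEGF, while between 12% and 20.1% of all genes lay wholly above DMSO in a given line. BTC lay wholly below DMSO in 1 line, CDKN2A, with 3.73, 4.01 and 2.29 CPM against 6.05, 8.22 and 10.6, where 14.4% of all genes did the same.

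For BaP, samples lay wholly above DMSO in 6 lines for EREG, 5 for EPGN, 3 for AREG, 2 each for HBEGF and TGFA, and 1 for BTC, against 11.2% to 14.6% of all genes in a given line. BTC lay wholly below DMSO under BaP in 1 line, GFP (-0.61), against 10.4% to 17.6% of all genes. For NNK the number of lines was 5 for EREG, 4 for AREG, 3 for EPGN and 1 each for TGFA and BTC, against 11.5% to 14.5% of all genes. No HBEGF comparison under NNK was free of overlap. The within-line CSC differences on the log2 CPM scale ran from 0.60 to 1.61 for EREG, from 1.34 to 2.66 for AREG and from 0.17 to 2.18 for EPGN.

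**Figure D3:**
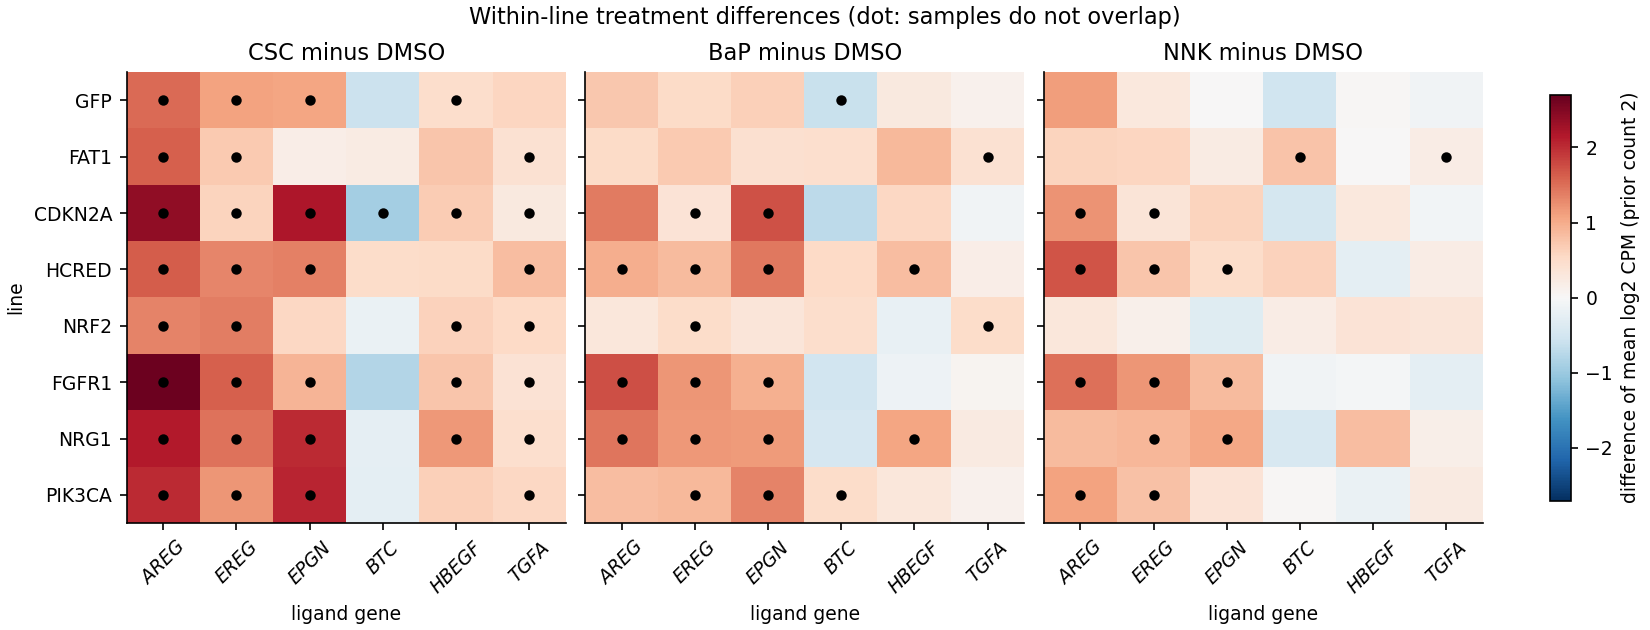
Difference of mean log2 CPM (colour, prior count 2) between each agent and DMSO for each ligand gene (x axis) within each line (y axis); a dot marks comparisons in which no sample of either group overlapped. Under CSC the AREG and EREG columns carry a dot in 8 of 8 lines, and under NNK the HBEGF column carries none.

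Whether the response to the agents differed between lines was tested with a line-by-chemical interaction of 21 terms. None of the 6 ligand genes passed with limma-voom, where 2.2% of all genes did (317 of 14384) and no member had an unadjusted p under 0.05. The adjusted p values ran from 0.464 for EPGN and 0.54 for EREG to 0.91 for AREG. EREG passed with edgeR's quasi-likelihood test (adjusted p = 0.0133) but not with DESeq2 (0.0748), and without the CDKN2A line its limma-voom value was 0.779. EREG in CDKN2A cells was at 116 to 135 CPM under DMSO, and its CSC difference there was the smallest of the 8 lines at 0.60.

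Among the lines, EREG had the widest range of fitted differences of the 6 genes over all treatments, from -1.197 in NRF2 cells to 2.79 in CDKN2A cells relative to their controls. Under DMSO alone the range of BTC was wider, from -1.89 in FAT1 to 2.58 in FGFR1 cells, neither past the threshold, against -0.98 to 3.07 for EREG. Under DMSO, EREG averaged 15.0 CPM in GFP (SD 4.77, n = 3), 15.6 in FAT1 (SD 6.57), 22.3 in NRF2 (SD 3.85), 23.8 in FGFR1 (SD 1.90), 44.1 in HCRED (SD 1.79), 50.8 in PIK3CA (SD 5.15), 61.1 in NRG1 (SD 4.88) and 126 in CDKN2A (SD 9.43). The first 4 lines overlapped with their neighbours in this order, and from FGFR1 upward no neighbouring lines overlapped.

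The 2 control lines were themselves not alike in EREG. GFP samples had 20.4, 11.5 and 13.1 CPM under DMSO, and HCRED samples 42.1, 44.8 and 45.5 CPM. EREG in GFP lay wholly below HCRED under 4 of 4 treatments, by -1.94 to -1.47 on the log2 CPM scale, and TGFA under 3, where 14.4% to 18.9% of all genes lay wholly lower. GFP and HCRED were made by different routes, so the route and any later divergence cannot be told apart, and each altered line is compared only with its own control.

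**Figure D4:**
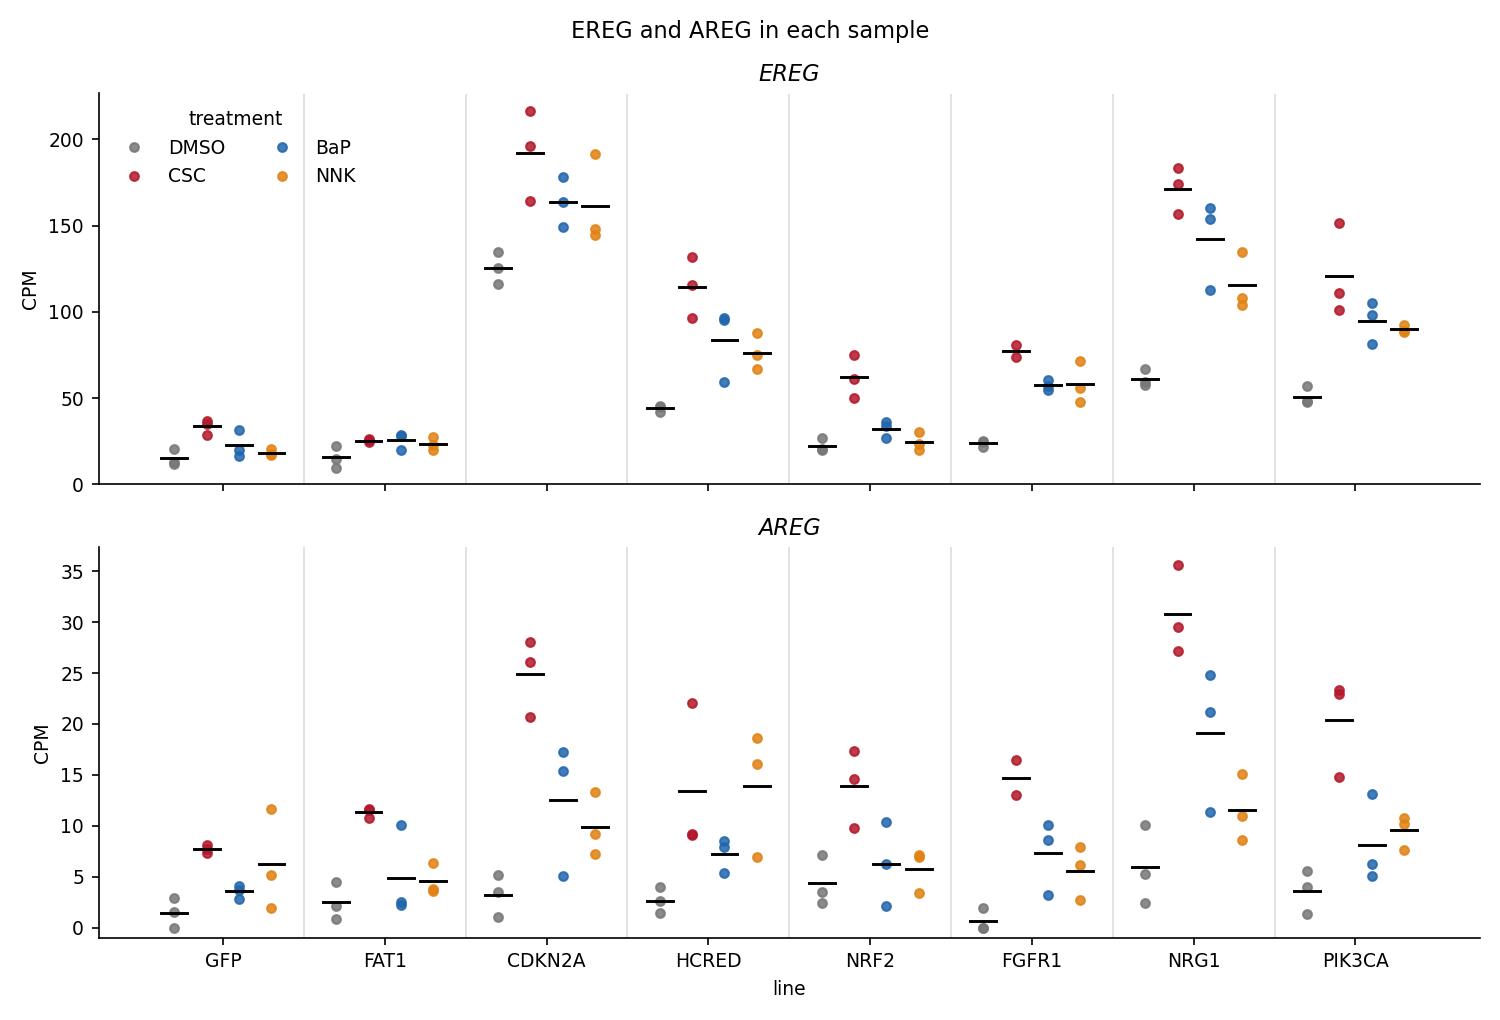
EREG (top) and AREG (bottom) in CPM (y axis) in each sample of each line (x axis), coloured by treatment; the bar is the mean of a combination. EREG reaches 164 to 216 CPM in CSC-treated CDKN2A cells and 24.4 to 26.2 CPM in CSC-treated FAT1 cells, and AREG is highest, at 27.2 to 35.6 CPM, in CSC-treated NRG1 cells.

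CDKN2A encodes the cell cycle inhibitor p16 and, from another reading frame, ARF, and its knockout cells expressed all 6 ligand genes above GFP over the 4 treatments. In that comparison of 24 samples, with treatment as a covariate, 57.6% of all genes passed and 29.4% were higher. EREG samples under DMSO had 135, 116 and 125 CPM in CDKN2A cells against 20.4, 11.5 and 13.1 in GFP. Under CSC they had 216, 164 and 196 CPM against 28.8, 35.2 and 36.7, and the lines did not overlap under any treatment, where 20% to 24.1% of all genes lay wholly higher under a given treatment. Over all treatments the difference was 2.79 (SE 0.11, adjusted p = 1.65e-32).

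EPGN in CDKN2A cells had 5.19, 16.4 and 6.18 CPM under DMSO against 2.92, 1.92 and 4.61 in GFP, and 41.0, 48.1 and 45.9 CPM under CSC against 10.6, 6.64 and 9.17. The CDKN2A samples lay above GFP under 4 of 4 treatments, as 20% to 24.1% of all genes did under a given treatment, with a difference of 2.07 (SE 0.22, adjusted p = 6.99e-13). BTC differed by 1.34 (SE 0.31, adjusted p = 1.26e-04), AREG by 1.296 (SE 0.26, adjusted p = 1.59e-05), HBEGF by 1.15 (SE 0.19, adjusted p = 2.42e-07) and TGFA by 0.52 (SE 0.10, adjusted p = 4.29e-06). These calls were kept when any 1 replicate number was left out. Samples lay wholly above GFP under 3 of 4 treatments for BTC, HBEGF and TGFA and under 2 for AREG, beside the same 20% to 24.1% of all genes. The median of the 6 differences was 1.32. The summed fibroblast markers had a median of 41.6 CPM in CDKN2A cells (24.2 to 62.6) and 30.4 in GFP (10.7 to 54.0), and their part in these differences was not tested.

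Under DMSO alone, with 3 samples against 3, EREG (3.07, SE 0.23, adjusted p = 3.93e-19) and TGFA (0.63, SE 0.17, adjusted p = 0.00214) were higher in CDKN2A cells, as were BTC (1.35, adjusted p = 0.0364) and HBEGF (0.94, adjusted p = 0.0244), where 37.2% of all genes passed, 18.9% higher and 18.3% lower. BTC had 6.05, 8.22 and 10.6 CPM against 1.94, 2.87 and 3.84 in GFP, and HBEGF 14.7, 18.5 and 15.0 CPM against 7.78, 8.62 and 7.67. Neither pair of groups overlapped, where 24.1% of all genes lay wholly higher, yet the BTC call was lost without any 1 of 5 samples and the HBEGF call without any 1 of 3, with the highest adjusted p at 0.127 and 0.0809. The BTC call needed every sample but CDKN2A replicate 1, and the HBEGF call needed CDKN2A replicate 2 and GFP replicates 1 and 3. EPGN (1.22, adjusted p = 0.0664) and AREG (1.17, adjusted p = 0.258) did not pass with limma-voom. EPGN passed with edgeR (0.0224) and, in limma-voom, with the replicate number as a block (0.0347) and with the GC and length correction (0.0397). It also passed in the limma-voom fit of all 95 samples (0.0469).

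FAT1, an atypical cadherin, was the altered gene of the other knockout line, where EPGN alone among the ligands passed over all treatments, being lower. EPGN had 0.748, 3.497 and 0 CPM in FAT1 cells under DMSO against 2.92, 1.92 and 4.61 in GFP, and 2.39, 1.28 and 1.06 CPM under CSC against 10.6, 6.64 and 9.17. The groups overlapped under DMSO and BaP and were apart under CSC and NNK, where 19% and 14.3% of all genes lay wholly lower. EPGN rests on 24 reads in total over the 12 FAT1 samples, with 0 to 10 in a sample. The difference over all treatments was -1.32 (SE 0.33, adjusted p = 5.71e-04), where 48.9% of all genes passed and 23.9% were lower. EREG differed by -0.02 (95% interval -0.31 to 0.27) and TGFA by 0.10 (-0.10 to 0.30). AREG (0.47, -0.07 to 1.01), HBEGF (-0.08, -0.51 to 0.35) and BTC (-0.43, -1.22 to 0.36) did not pass either. Under CSC, AREG lay wholly above GFP and EREG wholly below, as 17.9% and 19% of all genes did. TGFA lay wholly above under BaP and BTC wholly below under DMSO, as 15.8% and 18.7% of all genes did. Under DMSO alone no ligand passed with limma-voom, edgeR or DESeq2, where 26.3% of all genes did with limma-voom (12% higher, 14.3% lower). BTC alone had an unadjusted limma-voom p under 0.05 (-1.89, adjusted p = 0.0979).

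NRF2 is the transcription factor of the antioxidant response, and EREG alone among the ligands passed in cells that overexpressed it, being lower. NRF2 samples had 20.5, 19.7 and 26.7 CPM of EREG under DMSO against 42.1, 44.8 and 45.5 in HCRED, and 61.1, 75.1 and 50.1 CPM under CSC against 96.5, 116 and 132. All NRF2 samples lay below the HCRED samples under 4 of 4 treatments, where 9.25% to 11.5% of all genes lay wholly lower under a given treatment. The difference over all treatments was -1.197 (SE 0.11, adjusted p = 5.49e-15), where 21.6% of all genes passed and 11.2% were lower. Under DMSO alone it was -0.98 (SE 0.23, adjusted p = 0.00287), where 7.16% of all genes passed (3.26% higher, 3.9% lower), and that call was lost without both replicates numbered 1 (0.0641) and with DESeq2 (0.0849). The other 5 members differed by -0.26 to -0.15 over all treatments, and none passed.

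Cells that overexpressed FGFR1, a fibroblast growth factor receptor, also had lower EREG. FGFR1 samples had 24.8, 21.6 and 25.1 CPM under DMSO and 80.8 and 73.6 CPM under CSC, in both cases below all HCRED samples, while the groups overlapped under BaP and NNK. The share of all genes wholly lower was 7.65% under DMSO and 14.9% under CSC. The differences over all treatments were -0.61 for EREG (SE 0.09, adjusted p = 2.80e-07) and -0.36 for TGFA (SE 0.09, adjusted p = 0.0037), where 13.5% of all genes passed and 6.23% were lower. TGFA lost the call without the replicates numbered 3 (adjusted p = 0.0553).

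BTC was higher in FGFR1 cells by 1.116 (adjusted p = 0.0443), where 7.25% of all genes were higher. Under DMSO it had 5.50, 3.93 and 3.01 CPM against 0, 0 and 0.990 in HCRED. This call was lost with edgeR (0.0676), with DESeq2 (0.104) and without the replicates numbered 1 (0.0857) or 3 (0.52 on the log2 scale, adjusted p = 0.607). Under DMSO alone EREG was lower by -0.88 (SE 0.21, adjusted p = 0.0114), where 1.86% of all genes passed (1.09% higher, 0.774% lower). This EREG call was lost with DESeq2 (0.252), in the limma-voom fit of all 95 samples (0.0895) and without any 1 replicate number (0.104 to 0.106). It was also lost without the single sample FGFR1 replicate 2 (0.0773) or HCRED replicate 3 (0.0556).

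NRG1 (neuregulin 1) is itself an EGF-family ligand, of ERBB3 and ERBB4, and cells that overexpressed it had higher AREG and EREG. AREG had 35.6, 29.5 and 27.2 CPM in NRG1 cells under CSC against 22.1, 9.15 and 9.07 in HCRED, and 5.30, 2.45 and 10.03 CPM under DMSO against 2.58, 1.44 and 3.96. The groups were apart under CSC, where 7.6% of all genes lay wholly higher, and overlapped under DMSO. Over all treatments AREG differed by 1.03 (SE 0.22, adjusted p = 4.52e-04) and EREG by 0.60 (SE 0.08, adjusted p = 2.80e-08), where 10.8% of all genes passed, 5.86% higher and 4.91% lower. AREG lost the call without the replicates numbered 2 (0.71, adjusted p = 0.0900).

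EREG in NRG1 cells had 66.6, 57.5 and 59.0 CPM under DMSO and 184, 174 and 157 CPM under CSC, and lay above HCRED under 4 of 4 treatments, where 7.6% to 9.36% of all genes lay wholly higher under a given treatment. The summed basal epithelial markers of NRG1 cells (6718 to 8182 CPM) lay wholly below those of HCRED (8934 to 12200 CPM), and their part in the ligand differences was not tested. HBEGF missed the threshold with 0.55 (95% interval 0.14 to 0.95, adjusted p = 0.0789). Under DMSO alone no ligand passed with limma-voom, edgeR or DESeq2, where 2.04% of all genes did with limma-voom (1.1% higher, 0.946% lower). EREG (0.49, adjusted p = 0.158) and BTC (2.09, adjusted p = 0.323) had an unadjusted limma-voom p under 0.05.

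In cells that overexpressed PIK3CA, a catalytic subunit of PI3 kinase, HBEGF alone among the ligands passed, being higher. HBEGF had 22.9, 7.47 and 19.4 CPM under DMSO against 6.88, 4.33 and 10.9 in HCRED, which overlapped, and 28.0, 25.5 and 21.6 CPM under CSC against 8.18, 11.3 and 14.1, which did not, where 12.6% of all genes lay wholly higher. The difference over all treatments was 0.89 (SE 0.18, adjusted p = 9.59e-05), where 27.8% of all genes passed and 14% were higher. The summed basal epithelial markers of PIK3CA cells (5670 to 7104 CPM) lay wholly below those of HCRED, and the fibroblast markers had a median of 14.5 CPM against 27.6. Their part in the HBEGF difference was not tested. EREG, AREG, EPGN and TGFA differed by 0.11 to 0.23, and BTC by 0.71 (95% interval -0.01 to 1.43). Under DMSO alone no ligand passed with limma-voom, edgeR or DESeq2, where 8.6% of all genes did with limma-voom (4.79% higher, 3.81% lower). HBEGF alone had an unadjusted limma-voom p under 0.05 (0.86, adjusted p = 0.223). HBEGF passed there without PIK3CA replicate 2, the sample with 7.47 CPM (1.46, adjusted p = 0.0107). The 4 overexpression lines share their HCRED samples and the 2 knockout lines their GFP samples, so values of different lines are given side by side only.

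**Figure D5:**
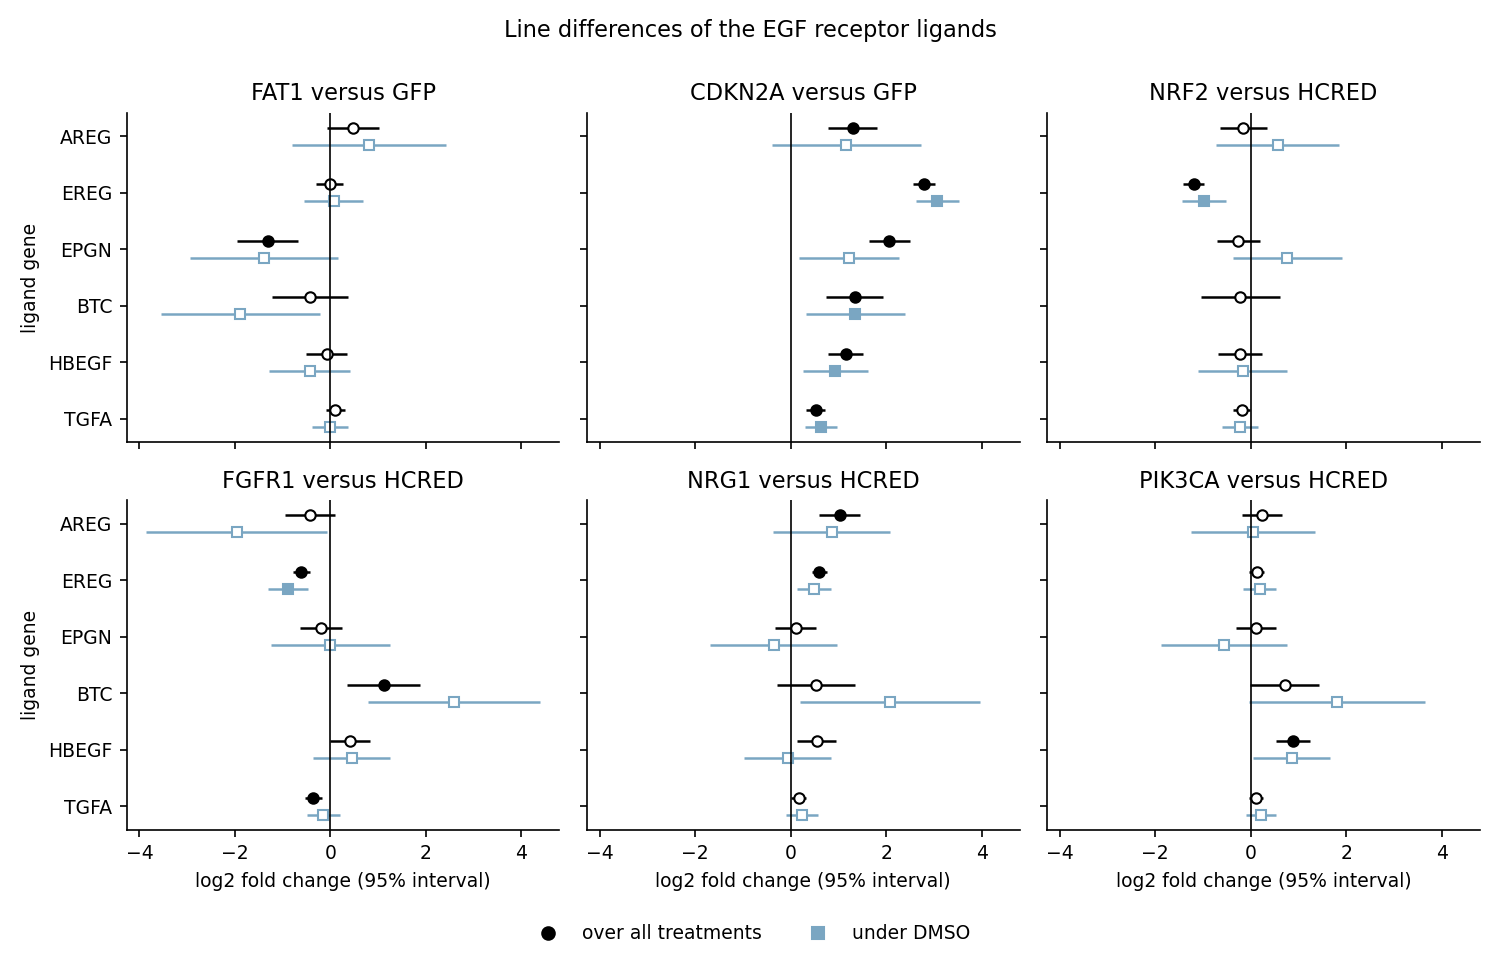
Log2 fold change of each ligand gene (y axis) in each altered line versus its control (x axis, limma-voom estimate with its 95% interval), over all treatments (black circles) and under DMSO (blue squares); filled symbols passed an adjusted p of 0.05. Over all treatments EREG moves furthest, from -1.197 in NRF2 to 2.79 in CDKN2A cells, and BTC has no DMSO value for NRF2 because its mean count was too low.

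Of the 4 ERBB receptor genes, 3 were tested. CSC raised 2, where 28% of all genes were higher, and BaP raised 1 and NNK 2, where 26.1% were for each. In CDKN2A cells 2 were higher and 1 lower, where 29.4% and 28.3% of all genes were. FAT1 cells had 2 higher, against 25% of all genes, and PIK3CA cells 2 lower, against 13.8%. FGFR1 and NRG1 cells had 1 lower each, against 6.23% and 4.91%, and in NRF2 cells 0 passed. EGFR, the common receptor, was higher under CSC by 0.40 (adjusted p = 8.35e-28) and in CDKN2A cells by 0.75 (adjusted p = 1.70e-25). ERBB2, the partner with no ligand of its own, was higher under CSC by 0.38, under BaP by 0.46 and under NNK by 0.50. ERBB3 was lower in CDKN2A cells by -1.196 (adjusted p = 1.35e-14) and in NRG1 cells by -0.68 (adjusted p = 8.34e-06). ERBB4 was not tested because its counts were too low.

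Of 16 genes that ERK signalling is known to induce, 15 were tested. This list, like the others, was chosen with earlier results of these data known, so its counts are not independent of them. CSC raised 15 of them (median 1.21), where 28% of all genes were higher. Among them were FOS by 2.10 (adjusted p = 1.76e-39), FOSL1 by 1.89 (3.90e-26) and the feedback inhibitor SPRY4 by 1.86 (4.36e-28). BaP raised 11 and lowered 0 (median 0.60), where 26.1% of all genes were higher and 24.9% lower. NNK raised 11 and lowered 1 (median 0.65), where 26.1% of all genes were higher and 25.7% lower. In CDKN2A cells 14 were higher and 0 lower (median 1.18), where 29.4% of all genes were higher and 28.3% lower. The ERK phosphatase DUSP6 was at 2.94 there (adjusted p = 4.79e-24) and MYC at 1.66 (1.22e-24). In NRF2 cells 0 were higher and 10 lower (median -0.53), where 10.4% of all genes were higher and 11.2% lower. DUSP6 was at -1.21 there (adjusted p = 1.13e-08) and PHLDA1 at -1.28 (1.19e-12).

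FGFR1 cells had 0 higher and 8 lower (median -0.46), where 7.25% of all genes were higher and 6.23% lower. NRG1 cells had 12 higher and 1 lower (0.50), against 5.86% and 4.91% of all genes. PIK3CA cells had 9 higher and 1 lower (0.38), against 14% and 13.8%. FAT1 cells had 6 higher and 5 lower (-0.14), against 25% and 23.9%. Over all treatments the 2 lines with lower EREG, NRF2 and FGFR1, had no ERK output gene that was higher. Under DMSO alone, however, NRF2 cells had 1 higher and 2 lower, where 3.26% of all genes were higher and 3.9% lower. In PIK3CA cells, where 9 ERK output genes were higher, EREG did not pass with limma-voom (0.12, adjusted p = 0.248). A link between these genes and EREG was not tested. The shares of all genes beside these counts come from the same limma-voom comparison as the counts.

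Of 8 genes of ligand shedding and trafficking, 4 were higher and 3 lower under CSC (median 0.04), where 28% of all genes were higher and 27.1% lower. RHBDF2, a cofactor that ADAM17 needs to reach the cell surface, was higher by 0.73 (adjusted p = 1.41e-10) and its relative RHBDF1 by 0.50, whereas the sheddase ADAM10 was lower by -0.36 (adjusted p = 9.07e-17). CDKN2A cells had RHBDF2 higher by 1.44 (adjusted p = 2.40e-12) and ADAM17 by 0.52 (adjusted p = 1.38e-08). In these cells 2 of the 8 were higher and 2 lower, where 29.4% of all genes were higher and 28.3% lower. Of 8 genes of receptor feedback and turnover, 2 were higher and 3 lower under CSC and 3 higher and 2 lower in CDKN2A cells, near the shares of all genes that passed (55.1% and 57.6%). ERRFI1, an inhibitor of EGFR, was higher under CSC by 0.56 (adjusted p = 1.33e-17) and in CDKN2A cells by 1.26 (adjusted p = 4.60e-21).

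Of 5 other ligands of the EGF family, 3 were tested over all lines. Under CSC 1 was higher and 1 lower, where 28% of all genes were higher and 27.1% lower. In CDKN2A cells 4 were tested and 3 were higher, where 29.4% of all genes were. NRG1 was lower under CSC by -0.44 (adjusted p = 7.59e-11), in a fit that includes the line overexpressing it. It was higher than the control in CDKN2A cells by 1.04 (adjusted p = 1.26e-04) and in NRF2 cells by 1.204 (adjusted p = 5.22e-06). CYP1A1, a known target of the aryl hydrocarbon receptor, rose by 5.66 under CSC, by 5.63 under BaP and by 3.06 under NNK (adjusted p = 2.08e-19).

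Within 500 kb of the chromosome 4 cluster the tables list 16 genes, the 4 ligands included. Of the 12 others, 7 had too few reads to be tested (CXCL3, CXCL5, CXCL6, PF4, PF4V1, PPBP and PPBPP2). Of the 5 tested, 1 passed for CSC, 2 for BaP and 1 for NNK, where 55.1%, 51% and 51.8% of all genes did. MTHFD2L, a mitochondrial folate enzyme next to EPGN, was lower under CSC by -0.28 (adjusted p = 0.00498), under BaP by -0.21 (0.0432) and under NNK by -0.24 (0.0187). The chemokine gene CXCL2 was higher under BaP by 0.71 (adjusted p = 0.0184) and passed for neither other agent. CXCL1, PARM1 and LINC02562 passed for none.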

How the data were processed

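SFL libraries of 95 AALE samples were sequenced as single-end 75-base reads. Per the labels and the study's methods, the authors trimmed adapters with cutadapt 1.12, checked reads with FastQC 0.11.5, aligned them to hg19 with STAR 2.5.2b and assigned them to RefSeq genes with featureCounts. They deposited raw counts, 1 whole number per gene and sample with no normalization. The use of strand and of multi-mapping reads is not given in the sources used here, and no molecular identifiers are described. The 95% intervals rest on the limma-voom standard errors, which measure the spread between samples, whereas the floor of 3 counts concerns counting only. Groups and replicate numbers come from the sample labels.

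Counts were normalized by TMM in edgeR 4.0.16 under R 4.3.3 and tested with limma 3.58.1 (voom, 2-sided, Benjamini-Hochberg adjustment over all genes averaging more than 1 read in the samples of a fit, threshold 0.05). Treatments were compared with line as a covariate (95 samples), lines with treatment as a covariate (24 samples, 23 for FGFR1) or under DMSO alone. The 95% intervals are unadjusted. Log2 CPM used a prior count of 2, and TPM the longest GENCODE transcript on GRCh37, with 25114 of the listed symbols matched. The scripts were tested on simulated data. The results were recomputed with the quasi-likelihood test of edgeR, with DESeq2 1.42.0 and its size factors, with other filters, a replicate block and a correction for GC content and length (lowess, span 0.3), and without each replicate. Thinning to 287446 reads, leaving out the CDKN2A line, the fit of genes of known GC content and the comparisons between agents were added after values were seen. The members and gene lists were chosen with earlier results of these data known. Ligands are always named, and up to 4 genes per list and comparison by largest change among those past the threshold with a mean count of at least 10. Pairing by replicate number was checked and is reported with the alternatives. Data of the study's other platforms were not analysed here.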

Additional observations from a re-analysis of the deposited data

How the results depend on the processing

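No ligand call reversed under any alternative that was run. For the comparisons with DMSO, with the control lines and of the interaction, 1335 alternative values were computed for single ligands, of which 1273 kept their side of the threshold, 46 lost a call and 16 gained one, 42 of the changes falling under DMSO alone. With a mean count of at least 10, AREG, EPGN and BTC were not tested, which left 3 ligand calls for CSC, 3 for BaP, 1 for NNK and 0 for FAT1. Without a filter on low counts, 12546 genes passed for BaP (8813 higher, 3733 lower) and 12582 for NNK (8746 higher, 3836 lower), and under DMSO 1 ligand passed for FAT1 and 2 for FGFR1; the cause was not tested.

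The correction for GC content and length left 4721 genes for CSC, 3477 for BaP, 2434 for NNK and 184 for the interaction. The same genes uncorrected gave 7851, 7311, 7412 and 330. DESeq2 under DMSO called 1983 genes for FAT1, 3402 for CDKN2A (2 ligands), 307 for NRF2 (0), 83 for FGFR1 (0), 72 for NRG1 and 460 for PIK3CA, and 152 for the interaction, where edgeR called 1 ligand. Without the CDKN2A line 174 genes passed for the interaction, and the fit of all 95 samples called 1 ligand for FAT1 under DMSO.

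Depth limits these counts. With every library thinned to 287446 reads, 4801 genes passed for CSC, 4619 for BaP (3 ligands), 4493 for NNK, 4115 for FAT1, 5515 for CDKN2A, 1247 for NRF2, 640 for FGFR1 (1), 424 for NRG1 (1), 1577 for PIK3CA (0) and 80 for the interaction. Under DMSO the thinned libraries gave 1136 for FAT1, 1976 for CDKN2A (1), 197 for NRF2 (0), 46 for FGFR1 (0), 33 for NRG1 (13 higher, 20 lower) and 199 for PIK3CA. HBEGF under BaP then fell to 0.37, TGFA in CDKN2A cells under DMSO to 0.20 and EREG in FGFR1 cells under DMSO to -0.48, none of them past the threshold.

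Leaving out each replicate number gave 84 to 275 genes for the interaction, 1322 to 1790 for CSC against BaP, 2234 to 2435 for CSC against NNK, 956 to 1177 for BaP against NNK (1 to 2 ligands), 2008 to 2255 for NRF2, 1034 to 1294 for FGFR1 (1 to 3 ligands, 1 without replicate 3) and 720 to 1105 for NRG1 (1 to 3, 1 without replicate 2). Under DMSO, leaving out a replicate number or a single sample gave 2423 to 3272 genes for FAT1, 3975 to 4956 for CDKN2A (2 to 5 ligands), 382 to 1029 for NRF2 (0 to 1, 0 without replicate 1), 83 to 274 for FGFR1 (0 to 1, 0 without any one replicate number), 123 to 274 for NRG1 and 672 to 1072 for PIK3CA (0 to 1, 1 without replicate 2).

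Samples with the same replicate number did not deviate together (mean correlation 0.00478 over 95 samples, and between -0.0112 and 0.0399 in the comparisons of lines), so the numbers were not taken to pair samples. With the replicate number as a block, HBEGF passed for PIK3CA under DMSO (1 ligand, 1.14, adjusted p = 0.0370), 5 ligands for CDKN2A under DMSO and 2 for FGFR1 over all treatments, and 373 genes passed for FGFR1 under DMSO in place of 265. BTC lost its call between CSC and NNK (adjusted p = 0.0545).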

Other observations

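Across the 32 combinations of line and treatment, 5 of the ligands followed related courses. On mean log2 CPM, Pearson's r between pairs of EREG, EPGN, TGFA, AREG and HBEGF ran from 0.57 (EPGN and TGFA) to 0.78 (EREG and EPGN), whereas BTC had an r of -0.10 to 0.40 with these members and rests on a mean of 2.38 reads per sample. Over the 8 DMSO combinations alone the values differed. EREG and TGFA had an r of 0.96, BTC had 0.74 with HBEGF, 0.54 with EREG and with EPGN and 0.51 with TGFA, and AREG had -0.09 with HBEGF and 0.16 with EPGN. The combinations share lines, treatments and control samples, so these values describe this set and carry no p.

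The gene with the course most like that of EREG, among 10062 genes averaging 10 or more reads, was the integrin ITGA5 (r = 0.932 over 32 combinations), followed by the ERK phosphatase DUSP6 (0.930), the phosphate transporter SLC20A1 (0.921), SPRY4 (0.917) and PLK3 (0.915). For HBEGF the nearest were UPP1 (0.85), the cytokine gene IL1A (0.820), HPCAL1 (0.803), TLR2 (0.801) and XDH (0.80). For TGFA they were TRIB1 (0.872), CDCP1 (0.871), ANGPTL4 (0.852), ITGA5 (0.850) and SSH1 (0.848). AREG, EPGN and BTC had too few reads for this comparison.

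The make-up of the family, as shares of the summed TPM of the 6 genes, differed between treatments and lines. AREG made up a median of 7.20% under DMSO and 21.6% under CSC, and the summed TPM had a median of 95.8 under DMSO, 219 under CSC, 147 under BaP and 136 under NNK. By line the summed TPM had a median of 88.1 in GFP, 96.8 in FAT1, 106 in NRF2, 130 in FGFR1, 170 in HCRED, 180 in PIK3CA, 217 in NRG1 and 254 in CDKN2A cells. EREG made up 44.4% of the sum in CDKN2A cells, 21.1% in NRF2, 18.5% in GFP and 16.8% in FAT1 cells.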
